A study of Rattus norvegicus with 12 samples.

Results

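The neuronal cytoskeleton and growth cone genes followed here are Tubb3, Map2, Dcx, Stmn2, Stmn3, Gap43, Fez1, Rtn1, Gpm6a and Tagln3. They are 10 of the 14218 genes that the rat array names, measured by 15 of its 31099 probe sets. Every probe set with exactly 1 of these symbols was taken, and each gene is represented by its probe set of highest mean across all 12 arrays. The genes were picked because earlier results of these same arrays showed them high in the iPS-labelled lines. Their differences between those lines and the others therefore describe the choice and carry no test. Comparisons among the other lines, and between both iPS-labelled lines, did not enter the choice and were tested.

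Gene expression was measured on 12 single-colour arrays from 6 rat lines or cultures, with 2 arrays for each. The arrays labelled iPS came from A1 and A2, lines of induced pluripotent stem cells of the FHH strain, which the series title ties to a transposon system. The ES label covers DAC8 and DAC2, lines of embryonic stem cells with no strain in the labels. The EF label covers REF1 and REF2, FHH embryonic fibroblast cultures prepared from e14.5 embryos. The iPS and ES cells were kept in 2i medium and collected 5 days after passage, and the fibroblasts were grown in MEF medium and collected 6 days after passage. All iPS and ES arrays carry the labels SSEA-1, Oct4, Nanog and Sox2 positive. The iPS lines were grown on mitotically inactivated mouse feeder fibroblasts, and the labels do not say whether feeders were removed before RNA was taken. Nor do they say whether both arrays of 1 line stem from different cultures, so p-values reflect only how far these arrays vary, which may be technical.

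Neurons build their axons and dendrites on microtubules made of alpha- and beta-tubulin. Microtubule-associated proteins such as Map2 and doublecortin (Dcx) stabilise and bundle the polymer, while the stathmins bind tubulin and promote its turnover. At the tip of a growing axon lies the growth cone, whose membrane is rich in Gap43 and in tetraspan proteins such as Gpm6a. Tubb3 and Dcx are widely used to mark young neurons in the brain, where most of these genes come on as progenitors leave the cell cycle.

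Levels are log2 signals, and 5 is taken as the limit under which signal and background are not separated. Where a side lies below 5, the difference bounds the change from below. Array medians lay between 5.28 and 5.41. Arrays labelled DAC8 and REF2 stood apart from their labels. Of 10 listed fibroblast markers, 9 reached 5 in DAC8 and 9 in REF1, against 4 in each iPS line and 1 each in DAC2 and REF2. All 7 measured markers of pluripotent stem cells reached 5 in DAC2 and REF2, against 3 in A1, 4 in A2, 3 in DAC8 and 4 in REF1. Across 11001 tested genes the line means of DAC8 and REF1 correlated at Pearson r = 0.989 and those of DAC2 and REF2 at 0.976, while DAC8 and DAC2 correlated at 0.639. Esrrb, a factor of naive pluripotency, was below 5 in both iPS lines, at 4.77 in A1 and 4.82 in A2, against 10.28 in DAC2. No array was moved to another group. Each line is reported on its own, since the mean of a label would average unlike lines.

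All 10 genes were higher in the iPS-labelled lines than in each of the other 4 lines. Every one of the 4 iPS arrays lay above all 8 other arrays for 10 of 10 genes, a pattern that 20.2% of the 11001 tested genes share. The gap between the lowest iPS array and the highest other array was between 2.17 log2 units for Stmn2 and 6.68 for Fez1. Each gene was at least 2-fold higher against each line, where 16.5% of tested genes were that much higher against DAC2, 15.6% against DAC8, 16.4% against REF1 and 15.8% against REF2. The excess reached 4 log2 units for 8 of 10 genes against DAC2, 6 against DAC8, 7 against REF1 and 7 against REF2, where 1.99%, 1.15%, 1.11% and 1.78% of tested genes did. Because the genes were picked on these differences, nothing is read from these counts. What follows is how the genes differed among themselves and among the lines that the choice did not use. The arrays hold RNA of whole cultures, so fewer cells of a type and less RNA per cell cannot be told apart.

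**Figure D1:**
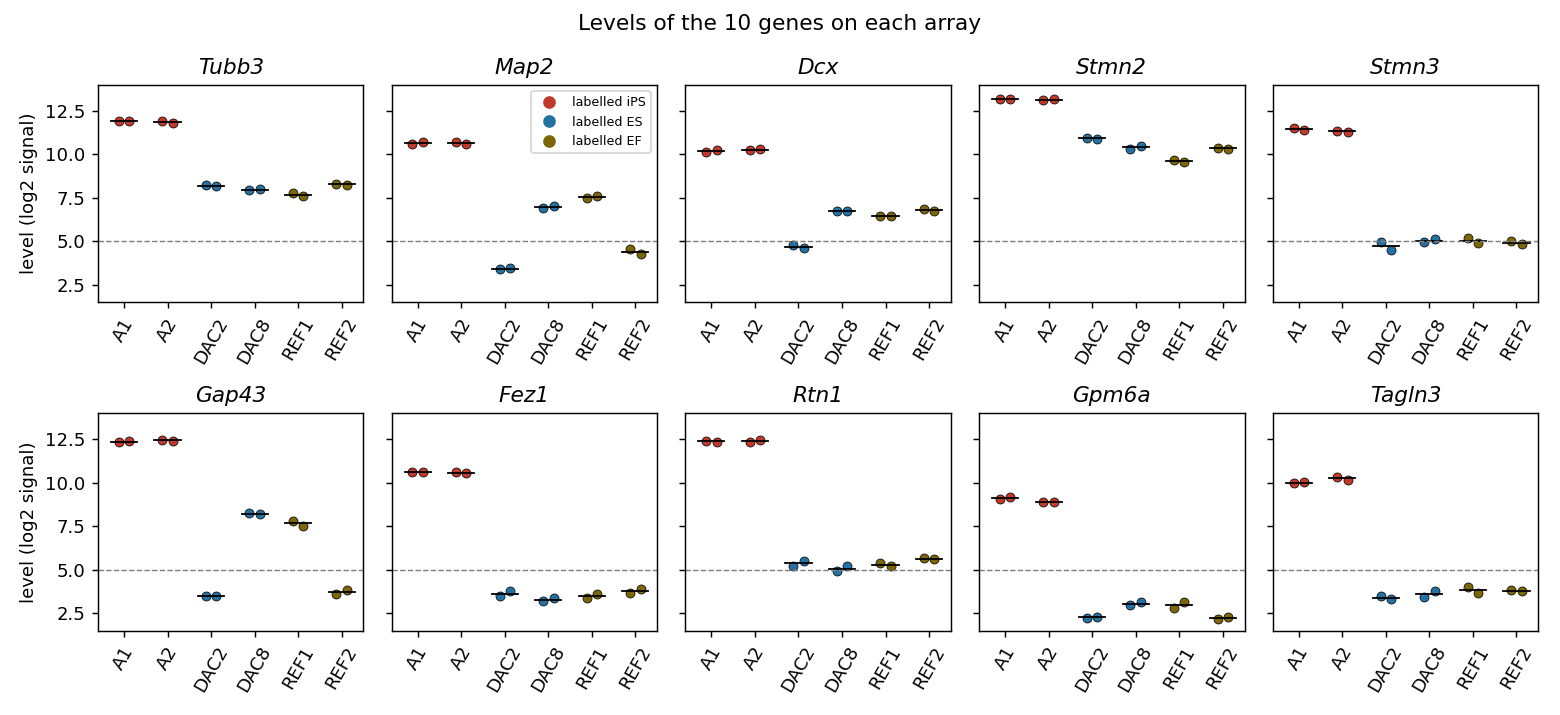
Level (log2 signal, vertical axis) of each of the 10 genes on the 12 arrays, with 1 point per array, a bar at the mean of the 2 arrays of a line, and a dashed line at 5. The iPS-labelled lines A1 and A2 stand highest in every panel. Map2 and Gap43 are also above 5 in DAC8 and REF1, Dcx in DAC8, REF1 and REF2, and Tubb3 and Stmn2 in every line. Stmn3 and Rtn1 lie near 5 outside iPS.

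The tubulin gene of the set is Tubb3, which encodes the class III beta-tubulin of neurons and lies at chr19:68365687-68374741 (GRCr8, the assembly of the gene table). It measured 11.90 and 11.95 in A1 and 11.95 and 11.82 in A2, against 8.24 and 8.16 in DAC2, 7.93 and 8.0 in DAC8, 7.78 and 7.61 in REF1, and 8.33 and 8.27 in REF2. The 4 iPS arrays sat together, and the 8 others formed a lower band well above 5, so the gene was measured in every line. The iPS mean of 11.90 ± 0.06 (SD, n = 4 arrays) was above that band by 3.71 ± 0.06 against DAC2, 3.94 ± 0.06 against DAC8, 4.21 ± 0.06 against REF1 and 3.60 ± 0.06 against REF2 (log2 difference ± SE). These differences rest on 1 probe set whose suffix, _s_at, marks probes that can match more than 1 transcript. The second probe set of Tubb3 was below 5 on all 12 arrays, with line means between 2.92 and 3.43, so no direction is read from it.

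Among the microtubule-binding proteins, Map2 stabilises the microtubules of dendrites and lies at chr9:75173038-75431606. It measured 10.62 and 10.74 in A1 and 10.74 and 10.60 in A2, against 3.40 and 3.45 in DAC2, 6.92 and 7.04 in DAC8, 7.50 and 7.63 in REF1, and 4.55 and 4.25 in REF2. Map2 thus stood at 3 heights, with the iPS lines at the top, the lines of fibroblast profile between, and DAC2 and REF2 below 5. The iPS lines were higher by 3.11 ± 0.09 against REF1 and 3.69 ± 0.09 against DAC8, and by at least 6.27 ± 0.09 against REF2 and 7.25 ± 0.09 against DAC2. The second probe set also had its highest levels in iPS, at 7.44 ± 0.13 (SD, n = 4 arrays), but was below 5 in all other lines.

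Dcx, which bundles microtubules in migrating neurons, lies on chromosome X at chrX:112227455-112370291. It measured 10.12 and 10.28 in A1 and 10.25 and 10.30 in A2, against 4.79 and 4.60 in DAC2, 6.74 and 6.76 in DAC8, 6.49 and 6.44 in REF1, and 6.84 and 6.76 in REF2. DAC2 was the line below 5, and the other 3 non-iPS lines lay close together well above it. The iPS excess was 3.48 ± 0.07 against DAC8, 3.78 ± 0.07 against REF1, 3.44 ± 0.07 against REF2 and at least 5.54 ± 0.07 against DAC2. The other Dcx probe set was dim, with an iPS mean of 5.45 ± 0.11 (SD, n = 4 arrays), and it lay below 5 in the 4 other lines.

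The stathmins differed from each other. Stmn2, a membrane-anchored stathmin of growing axons at chr2:95112017-95159642, was measured well above 5 in every line. It gave 13.21 and 13.21 in A1 and 13.15 and 13.16 in A2, against 10.98 and 10.91 in DAC2, 10.34 and 10.47 in DAC8, 9.69 and 9.58 in REF1, and 10.36 and 10.34 in REF2. Its iPS excess was the smallest of the 10 genes against DAC2, DAC8 and REF2, at 2.24 ± 0.05, 2.78 ± 0.05 and 2.83 ± 0.05, and was 3.55 ± 0.05 against REF1. DAC8 at 10.40 and REF2 at 10.35 did not differ beyond their spread, while DAC2 at 10.94 was above both and REF1 at 9.63 below both. The second probe set spread the lines further. It gave 12.32 ± 0.04 in iPS (SD, n = 4 arrays), against 9.74 in DAC2, 8.21 in DAC8, 7.61 in REF1 and 8.84 in REF2. Stmn3, a related neuronal stathmin at chr3:188794358-188802494, behaved otherwise. It ran between 11.32 and 11.54 in the 4 iPS arrays, against 4.50 to 4.94 in DAC2, 4.99 to 5.12 in DAC8, 4.90 to 5.18 in REF1 and 4.83 to 5.04 in REF2. The arrays of the 4 lower lines overlapped around 5, and the iPS excess lay between 6.35 and 6.68 log2 units.

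At the growth cone, Gap43 is the membrane-linked phosphoprotein that regulates actin and lies at chr11:71882131-71975799. It measured 12.33 and 12.37 in A1 and 12.47 and 12.40 in A2, against 3.47 and 3.49 in DAC2, 8.24 and 8.21 in DAC8, 7.82 and 7.50 in REF1, and 3.58 and 3.83 in REF2. Gap43 shared the 3 heights of Map2. The iPS lines were higher by 4.17 ± 0.09 against DAC8 and 4.73 ± 0.09 against REF1, and by at least 8.69 ± 0.09 against REF2 and 8.91 ± 0.09 against DAC2. Its second probe set stayed between 1.72 and 2.15 on all 12 arrays and gives no direction. Gpm6a, a tetraspan glycoprotein of the growth cone membrane at chr16:43374385-43706461, ran between 8.90 and 9.17 in the iPS arrays. It was below 5 in every other line, with means of 2.26 for DAC2, 3.06 for DAC8, 2.95 for REF1 and 2.23 for REF2.

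The remaining genes were low in all 4 other lines. Fez1, a kinesin adaptor that acts in axon outgrowth, lies at chr8:44733288-44778519. It measured 10.64 and 10.61 in A1 and 10.59 and 10.54 in A2, against 3.48 and 3.77 in DAC2, 3.18 and 3.35 in DAC8, 3.38 and 3.60 in REF1, and 3.67 and 3.86 in REF2. No line other than A1 and A2 gave Fez1 a level above 5. Rtn1, a reticulon of the neuronal endoplasmic reticulum at chr6:96499137-96719340, ran between 12.32 and 12.43 in iPS arrays and had line means of 5.36 in DAC2, 5.05 in DAC8, 5.29 in REF1 and 5.62 in REF2. Tagln3, a calponin-family protein of neurons at chr11:68562482-68576058, ran between 9.99 and 10.35 in iPS arrays and had line means of 3.38 in DAC2, 3.59 in DAC8, 3.82 in REF1 and 3.78 in REF2. Against the same 4 lines, Fez1 and Rtn1 were higher in iPS by at least 6.83 and by 6.76 log2 units in the smallest case, and Tagln3 by at least 6.31.

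**Figure D2:**
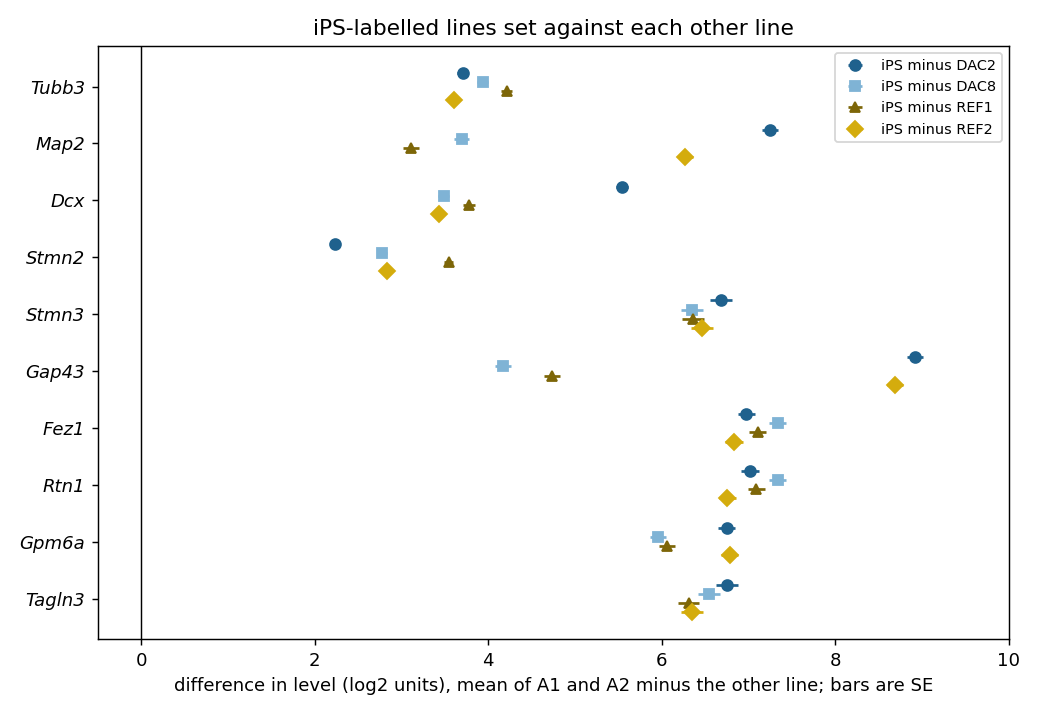
Difference in level (log2 units, horizontal axis) between the mean of the iPS-labelled lines A1 and A2 and each of the other 4 lines, for the 10 genes, with SE bars from the fit. Map2 and Gap43 split into smaller differences against DAC8 and REF1 and larger ones against DAC2 and REF2, Dcx is larger against DAC2, and the 4 differences of Fez1, Rtn1 and Tagln3 lie close together between 6.31 and 7.33.

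Likeness among the 10 genes was measured as the root mean square distance over the 12 arrays between profiles centred on their own means. These distances include levels below 5, where the true difference is not measured, and they carry the iPS excess on which the genes were chosen, so no order is read from them. The nearest profile to Map2 among the other 9 genes was that of Gap43, at 0.94, and the nearest to Stmn2 was that of Tubb3, at 0.55. Genes outside the set whose profile lay nearest to the mean of the 10 were Ina, which encodes the neuronal filament protein alpha-internexin, at 0.33, C5h8orf88 at 0.34, the collagen chain gene Col9a1 at 0.36, the transcription factor gene Tfap2b at 0.40 and the long noncoding RNA Miat at 0.40. For single genes, the nearest outside profile was that of Draxin for Fez1 (0.25), Rtn1 (0.27) and Tagln3 (0.32), Nhlh1 for Tubb3 (0.17), Kcnk10 for Stmn2 (0.20), and Zcchc18 for both Map2 (0.42) and Gap43 (0.72). Zcchc18 averaged 9.90 in A1 and 9.90 in A2, against 6.73 in DAC8, 6.65 in REF1, 2.59 in DAC2 and 2.82 in REF2, the 3 heights seen in Map2 and Gap43.

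Upstream sequence is shown for Fez1 and Rtn1 because both were high in iPS and near or below 5 in the 4 other lines, and for Tubb3 because it was measured in every line. RefSeq windows (GRCr8) of 250 bases before to 50 bases after a gene start matched 8 of the 10 genes, and the 250 bases upstream are printed 5′ to 3′ on the gene's strand. Capitals mark the GC box GGGCGG and the CCAAT box, each searched on both strands.
Fez1, chr8:44733135-44733384, plus strand: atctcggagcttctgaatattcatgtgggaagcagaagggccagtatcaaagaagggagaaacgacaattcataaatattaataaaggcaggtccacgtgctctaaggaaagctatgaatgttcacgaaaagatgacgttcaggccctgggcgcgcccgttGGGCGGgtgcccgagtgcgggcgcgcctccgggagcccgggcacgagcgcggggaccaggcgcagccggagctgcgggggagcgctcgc
Rtn1, chr6:96719341-96719590, minus strand: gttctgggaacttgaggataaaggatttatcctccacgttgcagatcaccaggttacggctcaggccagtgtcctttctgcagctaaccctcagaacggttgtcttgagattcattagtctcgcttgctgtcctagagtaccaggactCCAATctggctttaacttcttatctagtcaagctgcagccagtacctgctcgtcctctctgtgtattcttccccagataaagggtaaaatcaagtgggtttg
Tubb3, chr19:68365437-68365686, plus strand: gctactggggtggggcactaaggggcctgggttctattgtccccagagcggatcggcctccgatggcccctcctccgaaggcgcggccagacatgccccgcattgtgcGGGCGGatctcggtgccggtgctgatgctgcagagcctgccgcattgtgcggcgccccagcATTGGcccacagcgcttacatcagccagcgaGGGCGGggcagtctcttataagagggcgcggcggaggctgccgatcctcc
The printed sequences differed in base composition. The 250 bases held 23 CpG dinucleotides and 59.6% G or C at Fez1, 5 and 47.6% at Rtn1, and 21 and 68% at Tubb3. Over the full 300-base windows, Fez1 held 27 and Tubb3 26 CpG, against 1 in Map2, 3 in Dcx and a median of 7 over all 33469 windows. The GC box was in the windows of 4 of 8 genes and of 33.1% of all windows, and the CCAAT box in 4 of 8 and 37.5%. The E-box CAGCTG was in 0 of 8 and 15.1%, the E-box CAGATG in 2 of 8 and 16.6%, and the TATA box TATAAA in 1 of 8 and 14.2%. CAGCTG reads the same on both strands, and none of these motifs contains another. Each motif was searched on its own, with no check for shared bases. The windows of Map2 and Dcx lie inside their gene models, and Tagln3 has 2 windows, counted as 1 gene. These are matches of letters in a short window and say nothing of binding.

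The 2 iPS-labelled lines were compared first among the tests that the choice of genes left free. In A1 against A2, 0 of 10 genes were called by limma at adjusted p under 0.05 and at least 2-fold, also 0 at any fold and 0 at an unadjusted p under 0.05. Among tested genes 13.9% had an unadjusted p under 0.05 and 1.81% passed at any fold, and at 2-fold 0.136% of tested genes were called higher and 0.0818% lower. The widest differences were -0.24 ± 0.15 for Tagln3 (adjusted p = 0.544) and 0.21 ± 0.11 for Gpm6a (adjusted p = 0.453). All 10 differences thus lay between -0.24 and 0.21.

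The lines that share a label but not a profile did differ. Fez1, Gpm6a and Tagln3 passed the filter through their iPS levels alone and were below 5 in all other lines. They stay in the 10 of each count among these lines, where their true differences are not measured. In DAC8 against DAC2, both labelled ES, 3 of 10 genes were higher and 0 lower, where 20.4% of tested genes were called higher and 19.8% lower. Gap43 was higher by 4.75 ± 0.11 (8.23 in DAC8, 3.48 in DAC2, limma adjusted p = 3.38e-10), Map2 by 3.55 ± 0.10 (6.98 in DAC8, 3.43 in DAC2, adjusted p = 1.47e-09) and Dcx by 2.06 ± 0.08 (6.75 in DAC8, 4.69 in DAC2, adjusted p = 8.38e-09). DAC2 lay below 5 for all 3, so these sizes are lower bounds. For Dcx, the second probe set stood at 0.25 ± 0.16 in DAC8 against DAC2 (limma adjusted p = 0.174), with both sides below 5. This Dcx call thus rests on 1 probe set. In REF1 against REF2, both labelled EF, 2 of 10 were higher and 0 lower, where 19.6% of tested genes were called higher and 20.7% lower. Gap43 was higher by 3.96 ± 0.11 (7.66 in REF1, 3.70 in REF2, adjusted p = 1.12e-09) and Map2 by 3.17 ± 0.10 (7.57 in REF1, 4.40 in REF2, adjusted p = 3.19e-09), both again against a side below 5. Dcx stood at -0.34 ± 0.08 (6.46 in REF1, 6.80 in REF2, adjusted p = 0.00271), under 2-fold. Because the 10 include Fez1, Gpm6a and Tagln3, which are not measured here, the counts of 3 and 2 are not weighed against the background. They are values of single genes and are not read as a property of the set.

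At an adjusted p under 0.05 and any fold, 8 of 10 genes passed in DAC8 against DAC2 and 7 of 10 in REF1 against REF2, beside 84.2% and 83.3% of tested genes. The 8 include Fez1 and Gpm6a and the 7 include Gpm6a, each below 5 on both sides, so nothing is read from these counts. Stmn2 stood at -0.54 ± 0.06 in DAC8 against DAC2 (adjusted p = 2.22e-05) and at -0.72 ± 0.06 in REF1 against REF2 (adjusted p = 2.76e-06), each under 2-fold. Its second probe set, tested beside every other probe set, was lower by more than 2-fold in both, at -1.53 ± 0.06 (adjusted p = 5.72e-09) and -1.23 ± 0.06 (adjusted p = 2.5e-08). For Stmn2 the call therefore depended on the probe set, while the direction was shared. The second Map2 probe set was called higher in REF1 against REF2, at 1.22 ± 0.14 (adjusted p = 2.42e-05), and stood at 0.68 ± 0.14 in DAC8 against DAC2, with all 4 of these lines below 5. Gpm6a stood at 0.79 ± 0.11 in DAC8 against DAC2 and 0.72 ± 0.11 in REF1 against REF2, but it was below 5 in all of them, so no direction is read.

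**Figure D3:**
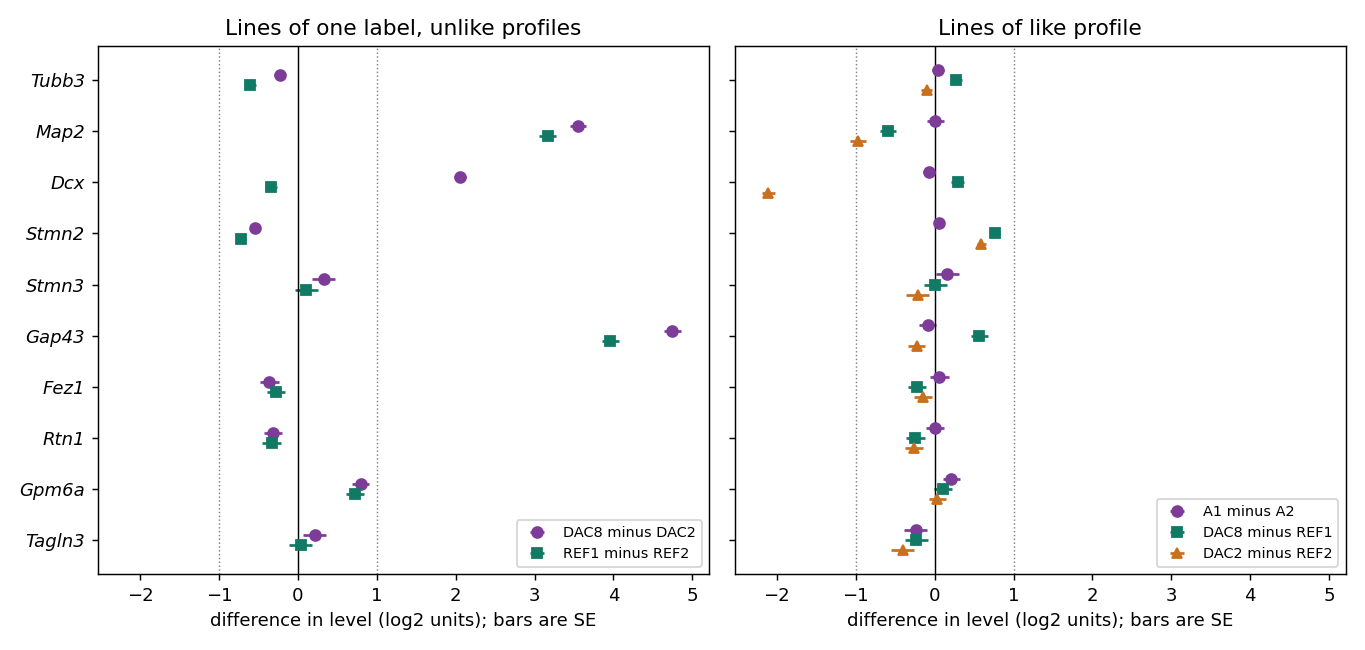
Difference in level (log2 units, horizontal axis) of the 10 genes in the comparisons that did not enter their choice, with SE bars and dotted lines at the 2-fold limits. On the left, Gap43 and Map2 are higher in DAC8 than in DAC2 and in REF1 than in REF2, and on the right Dcx is lower in DAC2 than in REF2 while the points for A1 minus A2 lie between -0.24 and 0.21.

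Lines of opposite label but like profile were close. In DAC8 against REF1, 0 of 10 genes passed with limma at adjusted p under 0.05 and 2-fold, 5 of 10 passed at any fold and 5 of 10 had an unadjusted p under 0.05. Among tested genes 33.5% had an unadjusted p under 0.05 and 19.8% passed at any fold, and at 2-fold 0.727% of tested genes were called higher and 0.800% lower. The widest were Stmn2 at 0.77 ± 0.06 (adjusted p = 7.7e-05), Map2 at -0.59 ± 0.10 (adjusted p = 0.00486) and Gap43 at 0.56 ± 0.11 (adjusted p = 0.00756). In DAC2 against REF2, Dcx was lower by more than 2-fold, at -2.11 ± 0.08 (4.69 in DAC2, 6.80 in REF2, adjusted p = 4.12e-07), and 0 genes were higher, where 2.95% of tested genes were called lower and 1.05% higher. At any fold 4 of 10 genes passed, beside 45.7% of tested genes, and they include Tagln3, which was below 5 on both sides. Map2 stood at -0.97 ± 0.10 (adjusted p = 0.000105), just under 2-fold and with both sides below 5. The second Dcx probe set stood at -0.29 ± 0.16 (adjusted p = 0.181) with both sides below 5, so the Dcx difference rests on 1 probe set.

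**Figure D4:**
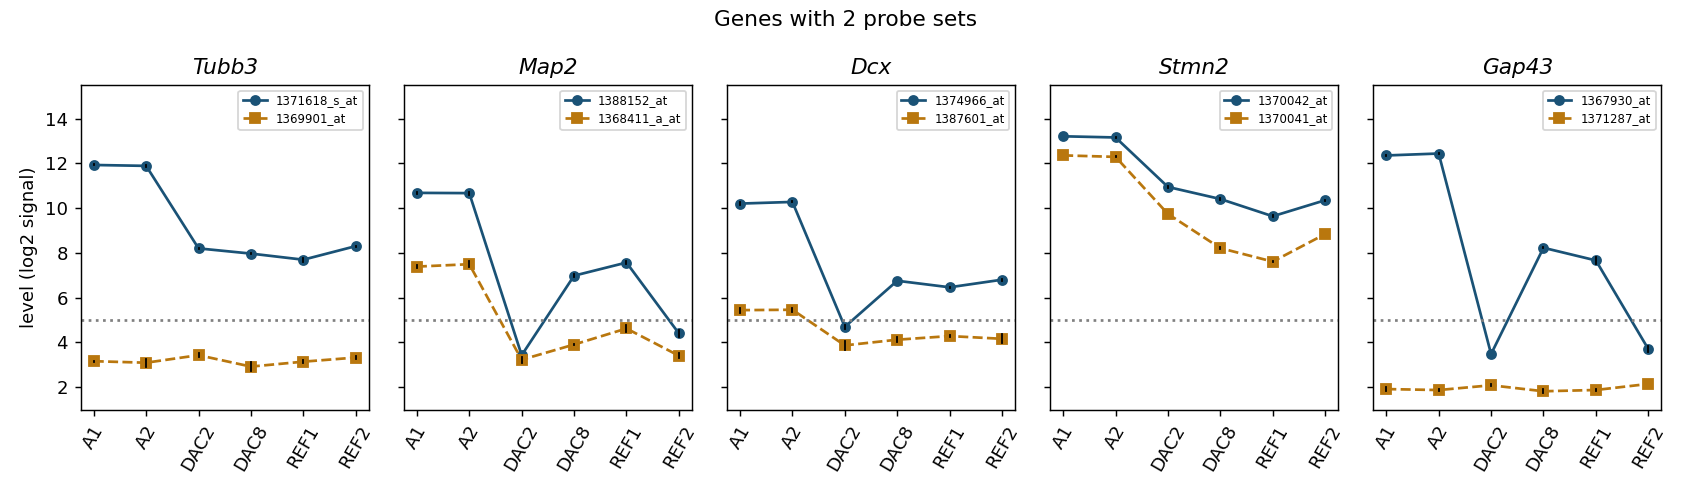
Line means (log2 signal, vertical axis) of both probe sets of the 5 genes that have 2, with the representative probe set as circles, the other as squares, black bars joining the 2 arrays of a line, and a dotted line at 5. The second probe sets of Tubb3 and Gap43 stay below 5 in every line, those of Map2 and Dcx pass 5 in A1 and A2 alone, and both probe sets of Stmn2 are above 5 in every line.

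DAC8 and REF1, the lines of fibroblast profile, each had 7 of the 10 genes at a line mean of 5 or more, which were Tubb3, Map2, Dcx, Stmn2, Stmn3, Gap43 and Rtn1. REF2 had 4, Tubb3, Dcx, Stmn2 and Rtn1, and DAC2 had 3, Tubb3, Stmn2 and Rtn1. Stmn3 and Rtn1 were near 5 there, so Gap43 and Map2 are the genes that set the lines of fibroblast profile apart from DAC2 and REF2. Fibroblast markers and an RNA quality measure moved with DAC8 and REF1. The summed signal of the 10 fibroblast markers was 15.35 to 15.38 in DAC8 and 15.71 to 15.75 in REF1 (log2), against 7.44 to 7.46 in DAC2 and 7.80 to 7.92 in REF2. Among them, Postn was at 13.61 in DAC8 and 13.74 in REF1 and Dcn was below 5 in all 6 lines. RNA quality was read from beta-actin as its 3′ minus its 5′ level, which was 0.45 to 0.52 in DAC8 and 0.42 to 0.48 in REF1, against 0.88 in DAC2, 0.94 to 1.05 in REF2 and 0.84 to 0.87 in the iPS lines. Of 4 measured neural crest and Schwann markers, 3 reached 5 in DAC8, 2 in REF1, 2 in DAC2, 1 in REF2 and 0 in A1 and A2. Sox10, a neural crest factor, was at 6.33 in DAC8 and 5.73 in REF1 and below 5 in the other lines, while Tfap2a averaged 6.39 for DAC8 and 6.26 for REF1, against 6.90 for DAC2 and 7.46 for REF2. The summed signal of the 4 did not separate the lines in that way, at 7.77 to 7.81 in DAC8 and 7.36 to 7.46 in REF1, against 7.70 to 7.76 in DAC2 and 7.83 to 8.16 in REF2. The part of each in the Map2 and Gap43 levels was not tested.

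Markers of other cell types were read in the iPS-labelled lines beside these genes. Of 9 measured markers of neural progenitors, 7 reached 5 in A1 and in A2, against 4 in DAC2 and 3 each in DAC8, REF1 and REF2, with Pax6 at 7.33 in A1 and 7.76 in A2 and below 5 elsewhere. Their summed signal (log2) was 11.84 to 11.93 in A1 and 11.94 to 11.96 in A2, against 11.56 to 11.63 in DAC2, 9.13 to 9.37 in DAC8, 9.57 to 9.64 in REF1 and 11.67 to 11.73 in REF2. Sox2 made up most of the sum in DAC2 and REF2, at 11.48 and 11.57, against 9.43 in A1 and 9.31 in A2. It was called lower in iPS against DAC2 (-2.11 ± 0.10) and REF2 (-2.20 ± 0.10), where the other tested progenitor markers were called higher. Sox1 and Sox3 averaged below 5 in all 6 lines. All 3 measured neuroendocrine markers reached 5 in A1 and A2 and 0 in the other lines, with Chga at 7.87 and 8.15. Of 7 astroglia markers, 2 reached 5 in A1 and 3 in A2, against 1 in DAC2, 2 in DAC8, 2 in REF1 and 1 in REF2. Slc1a3, a glutamate transporter of astroglia, averaged 7.92 in A1 and 7.67 in A2, against 4.70 in DAC2, 5.52 in DAC8, 5.95 in REF1 and 4.70 in REF2, and it and S100b (4.66 in A1, 5.14 in A2) were called higher in iPS against all 4 lines. Gja1, a gap junction gene, was at 10.78 or more in every line and was called lower in iPS against DAC8, REF1 and REF2. Gfap, Aqp4, Slc1a2 and Aldh1l1 were below 5 in all 6 lines. The summed signal of the 7 astroglia markers was lowest in iPS, at 11.03 to 11.13 in A1 and 10.99 to 11.01 in A2. It was 11.61 to 11.65 in DAC2, 11.89 to 11.90 in DAC8, 12.21 to 12.22 in REF1 and 12.18 to 12.26 in REF2. Of 6 measured oligodendrocyte markers, Cnp alone reached 5, at 7.66 in A1 and 7.85 in A2, against 5.81 in DAC2, 8.41 in DAC8, 8.21 in REF1 and 6.61 in REF2. Of 6 blood and microglia markers, Cd68 alone passed 5 in an iPS line, at 5.30 in A1. Of the fibroblast markers, Pdgfra, Fbn1, Thy1 and Twist1 reached 5 in A1 and A2, while Col1a1, Col3a1 and Postn did not. The part of progenitor, glial, neuroendocrine or mouse feeder RNA in the levels of the 10 genes was not tested.

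Close relatives of the 10 genes were listed by family. The list was drawn up with earlier results of these arrays known, so its iPS counts and p-values are no independent support. Of 26 listed relatives, 25 were tested, and in iPS 12 were called higher and 1 lower against DAC2, 9 and 2 against DAC8, 9 and 2 against REF1, and 12 and 2 against REF2. Their median difference was 0.89, 0.63, 0.65 and 0.90 log2 units in that order, where the median of all tested genes was -0.07, 0.11, 0.12 and -0.03. Of all tested genes, 16.5% were called higher and 13.3% lower against DAC2, 15.6% and 16.2% against DAC8, 16.4% and 16.4% against REF1, and 15.8% and 15.0% against REF2. Map1b, Mapt, Dclk2, Stmn4, Rtn2 and Gpm6b were higher in iPS against all 4 lines, and Tubb4a, Tubb4b, Tubb5, Map1a, Marcksl1 and Rtn4 were called against none. For Dclk2 this holds for the representative probe set, and its other probe sets did not all share the direction.

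Within families the iPS excess fell on some members. Of the beta-tubulins, Tubb2b, a neuronal isotype, averaged 12.48 in A1 and 12.49 in A2, against 11.61 in DAC2, 9.05 in DAC8, 9.04 in REF1 and 11.33 in REF2. Tubb5, an isotype of dividing cells, was within 0.65 log2 units of the iPS mean in all 4 lines, and Tubb6 was lower in iPS against DAC2 (-1.28 ± 0.06, limma adjusted p = 6.88e-08) and REF2 (-1.07 ± 0.06, adjusted p = 2.25e-07). Mapt, the axonal protein tau, was higher in iPS by at least 4.68 ± 0.16 against DAC8, where it lay below 5, and by 1.55 ± 0.16 against DAC2. Mapt was thus lower in DAC8 than in DAC2, whereas Map2 was higher. Stmn1, the stathmin of proliferating cells, was at 12.97 in A1 and 13.06 in A2, against 12.87 in DAC2, 11.15 in DAC8, 10.92 in REF1 and 12.89 in REF2. Stmn4, a neuronal stathmin, was higher in iPS by 3.62 to 3.93 log2 units against the 4 lines.

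Relatives of Dcx, Gap43 and Gpm6a were among those present in lines of fibroblast profile. Dclk1, a doublecortin-like kinase, averaged 9.62 in A1 and 9.63 in A2, against 9.42 in DAC8, 9.43 in REF1, 3.12 in DAC2 and 3.55 in REF2. Basp1, a growth cone protein related in function to Gap43, averaged 12.34 in A1 and 12.15 in A2, against 12.35 in DAC8, 12.30 in REF1, 6.63 in DAC2 and 7.53 in REF2. In iPS against DAC8 the difference was 0.21 ± 0.06 for Dclk1 (limma adjusted p = 0.012) and -0.11 ± 0.08 for Basp1 (adjusted p = 0.208), beside 3.48 for Dcx and 4.17 for Gap43. Gpm6b, the sister gene of Gpm6a, was higher in iPS by at least 7.27 ± 0.10 against DAC2 (limma adjusted p = 2.81e-11), and by 5.16 ± 0.10 against REF1 (adjusted p = 1.3e-10). In DAC8 it averaged 6.49, where Gpm6a was below 5. Probe sets of Dclk2 disagreed, with 1 of 3 having the direction of the representative against DAC2 and REF2, and 2 of 3 against DAC8 and REF1. Tagln, the smooth muscle relative of Tagln3, was lower in iPS, at -9.46 ± 0.17 against DAC8 and -9.00 ± 0.17 against REF1, and was below 5 in A1, A2, DAC2 and REF2. Fez2, the widely expressed relative of Fez1, was lower in iPS, at -3.08 ± 0.07 against DAC8, -2.42 ± 0.07 against REF1 and -1.30 ± 0.07 against REF2. Against DAC2 it stood at -0.998 ± 0.065, just under 2-fold.

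**Figure D5:**
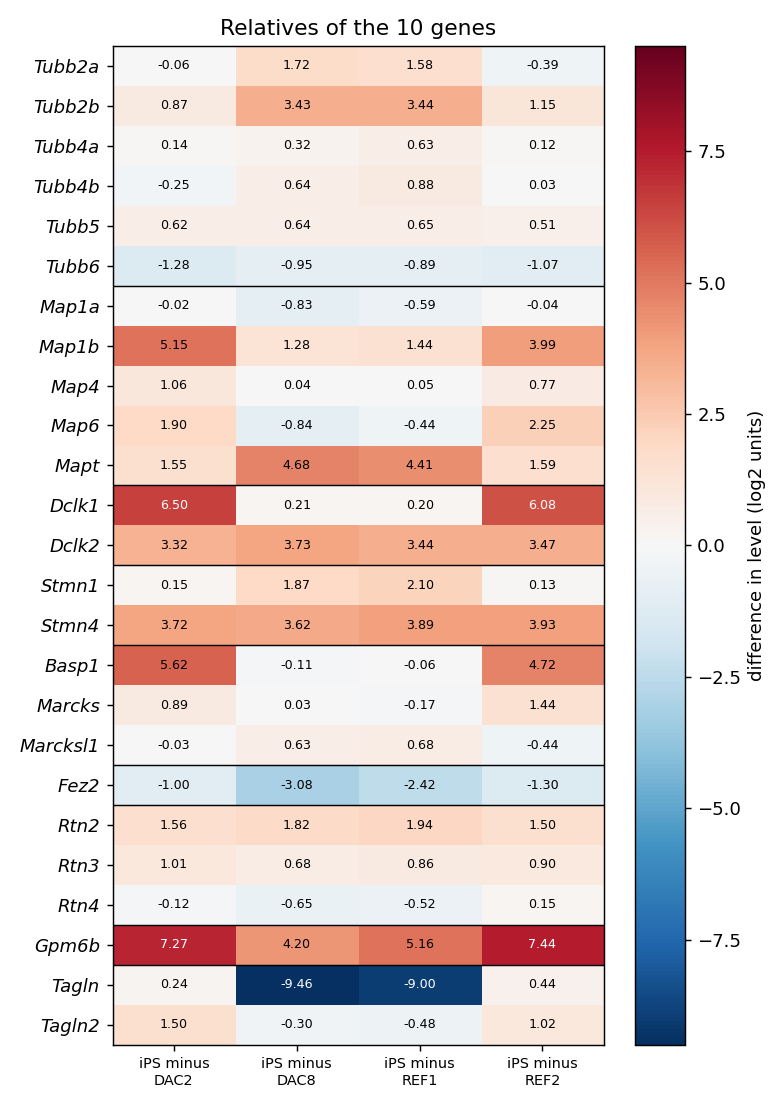
Difference in level (log2 units, colour and printed value) between the mean of the iPS-labelled lines and each of the other 4 lines for the 25 tested relatives, grouped by family. Stmn4, Dclk2 (representative probe set) and Gpm6b are higher in iPS in all 4 columns, Dclk1 and Basp1 are called higher against DAC2 and REF2 alone, and Tagln is lower against DAC8 and REF1 alone.

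Other genes of neuronal shape and transport were taken from lists. These lists were also drawn up with earlier results of these arrays known, so their iPS counts and p-values are no independent support. Of 15 tested neuronal filament and motor genes, in iPS 9 were higher and 0 lower against DAC2, 9 and 1 against DAC8, 9 and 1 against REF1, and 10 and 0 against REF2, beside the shares of all tested genes given for the relatives. Their median difference was 1.81, 1.34, 1.18 and 1.58 log2 units in that order. Ina was higher by 6.04 ± 0.14 against DAC2 and 5.60 ± 0.14 against REF1, Nefm, the medium neurofilament chain, by 4.67 ± 0.09 against DAC2, and the kinesin Kif21a by 4.29 ± 0.09 against REF1 (limma adjusted p at most 5.58e-10). Of 20 tested axon growth, guidance and adhesion genes, 16 were higher and 1 lower in iPS against DAC2 and 16 and 1 against REF2, and 10 and 7 against DAC8 and 9 and 6 against REF1. Of all tested genes, 16.5% were higher and 13.3% lower against DAC2, 15.8% and 15.0% against REF2, 15.6% and 16.2% against DAC8, and 16.4% and 16.4% against REF1. The list's median difference was 2.34, 2.25, 0.91 and 0.98 log2 units in that order. Crmp1, a semaphorin response protein, was higher by 5.54 ± 0.13 against DAC2. Its relative Dpysl5 was higher by at least 5.41 ± 0.08 against REF1, where it lay below 5. Slit2, a guidance ligand, was lower in iPS against REF1, at -5.63 ± 0.08, and Ablim1, an actin-binding protein, was lower against DAC2, at -6.45 ± 0.09 (limma adjusted p at most 3.75e-10 for these 4). Ablim1 was below 5 in A1 and A2, so its difference is a bound.

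Of 13 tested genes of the neuronal nucleus and synapse, in iPS 10 were higher and 1 lower against DAC2, 9 and 1 against DAC8, 8 and 1 against REF1, and 10 and 1 against REF2, beside the same shares of all tested genes. Their median difference was 2.04, 2.08, 1.90 and 3.33 log2 units in that order. Earlier results of these arrays were known when this list was drawn up, so the same limit holds for its counts and p-values. The RNA-binding protein gene Elavl4 was higher by at least 7.08 ± 0.10 against DAC2 and 6.92 ± 0.10 against REF1. Its relative Elavl2 was higher by at least 7.06 ± 0.07 against REF1, and the synaptic fusion gene Snap25 by at least 4.72 ± 0.13 against DAC2 (limma adjusted p at most 1.32e-09 in each case). The other line lay below 5 in each case. Rbfox3, the marker NeuN of mature neurons, and Syt1, a calcium sensor of the synapse, were below 5 in all 6 lines. Syn1, which encodes synapsin, averaged 5.56 in A1 and 5.62 in A2 and was not called against any line. Among other synapse genes of the list, Syt4 averaged 7.03 in A1 and 7.01 in A2 and was called higher against all 4 lines. Syp (6.51 and 6.74) was called higher against DAC8 and REF2, and Rab3a (6.79 and 6.54) against DAC2. Cplx2 (6.26 and 6.32) was called higher against DAC2 and REF2 and lower against REF1. In A1 against A2, of the 73 tested genes of these 4 lists, Prph alone was called, at 5.67 in A1 and 4.62 in A2.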

How the data were processed

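The deposited table holds log2 signals for 12 Affymetrix rat arrays, made by the authors with RMA in Partek 6.2, per the submitters' processing notes. The sources used here do not say if the 12 arrays were normalized as 1 set, and the deposited values entered the fits unchanged. The platform table gives 20832 probe sets 1 symbol and 436 several, and 9831 are not listed in it. Each gene kept its probe set of highest overall mean. A gene stayed in if some line averaged at least 5, as 11001 did and 3217 did not. A linear model with 1 term per line was fitted to all 12 arrays with limma 3.58.1 (R 4.3.3; lmFit and eBayes), with Benjamini-Hochberg adjustment over all tested genes. A call needed an adjusted p under 0.05 and a 2-fold difference. The iPS side is the mean of A1 and A2. The fit was tested on simulated data.

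The members and all gene lists were chosen with earlier results of these data known. Genes named from the lists are the 2 with the largest called difference against DAC2 and the 2 against REF1 in each list, beside any relatives of the members. The exceptions are Prph, Syn1, Rbfox3, Syt1, Syt4, Syp, Rab3a, Cplx2 and single markers, which were named after their values were seen. Alternatives covered normalization, the filter, the choice of probe set, the samples fitted, the replicate number as a block and each array left out. A fit without the lines DAC8 and REF2 was added after seeing the data. The number of arrays limits the precision.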

Additional observations from a re-analysis of the deposited data

How the results depend on the processing

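No iPS difference of a member changed sign under any alternative, and neither did a called difference. Sign changes of differences called in neither fit were not counted. Of 2010 recomputed member values, 1952 were the same. In the iPS comparisons this means within the SD between arrays of a line, and in the others an unchanged call. In DAC2 against REF2 the count of members called was 2 after quantile normalization, where Map2 (-1.04, limma adjusted p = 0.000199) joined Dcx, and ranged from 1 to 2 with each array left out, the 2 coming without REF2 replicate 2 (Map2 -1.12, adjusted p = 0.000169). Map2 was below 5 on both sides there. With the mean of a gene's probe sets, Stmn2 passed 2-fold in DAC8 against DAC2 (-1.03, adjusted p = 3.62e-08), and the iPS difference of Gap43 became 4.36 against DAC2 and 2.12 against DAC8, and that of Tubb3 1.70 against DAC2 and 2.07 against DAC8. For Gap43 and Tubb3 that mean takes in a second probe set that was below 5 on all 12 arrays. The genes called in A1 against A2 numbered 24, and 11 when only these lines were fitted. Leaving out an array gave 20 to 24 there, and it assumes that the lone array of a line varies like the others. Matched by replicate number, deviations of arrays from their line means correlated between lines at -0.08 to 0.24. The highest values were 0.24 for DAC2 with REF2 and 0.18 for A1 with A2. With the replicate block, 24 genes were called in A1 against A2, 4420 in DAC8 against DAC2, 4438 in REF1 against REF2, 168 in DAC8 against REF1 and 440 in DAC2 against REF2, and no member call changed. Without DAC8 and REF2, an alternative chosen after seeing the data, all 30 recomputed member values were the same by these rules. Levels below 5 limit what can be measured for Gpm6a, Fez1 and Tagln3 outside iPS.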
